A study of Mus musculus with 6 samples.

Results

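The 8 genes described here encode the proteins of the U11/U12 particle of the minor spliceosome, together with *Scnm1*, a protein of the same spliceosome. They were *Rnpc3*, *Snrnp25*, *Snrnp35*, *Snrnp48*, *Zmat5*, *Zcrb1*, *Pdcd7* and *Scnm1*, matched by symbol among the 56923 genes of the count tables. All 8 were measured and all 8 passed the filter on low counts. The group was chosen by the counts of *Rnpc3*, which stood higher in the *Pla2g4e* knockout libraries in an earlier look at these data, and this difference is therefore given as a description without a test. The question asked of the other 7 genes, called partners below, was whether they rose with it.

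RNA was sequenced from prefrontal cortex of *Pla2g4e* knockout mice (KO, n = 3 libraries) and of wild-type mice (WT, n = 3 libraries). *Pla2g4e* codes for a phospholipase that depends on calcium and belongs to the cytosolic A2 group. The constitutive knockout of the study is C57BL/6N-A tm1Brd Pla2g4e tm2a, in which a lacZ gene trap is expected to leave no working protein, and the labels name no treatment. Age, sex and litter are not given for these libraries, and nothing in the labels says that they came from separate animals, so p-values measure the spread between these libraries, which may be in part technical.

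The libraries held between 11792463 and 14594230 fragments (read pairs) counted over exons. *Pla2g4e* itself was at 5.95, 8.12 and 7.97 CPM (fragments per 1e6 of a library after TMM scaling) in KO and 7.84, 11.3 and 13.2 CPM in WT, so WT replicate 1 lay within the KO range. The fitted log2 fold change of *Pla2g4e* was -0.55 (standard error 0.21, adjusted p = 0.635 in limma-voom), or 0.685-fold in KO. Whether the fragments left in KO came from a trapped transcript was not tested. Counts summed over all exons do not by themselves check the genotype. *Xist*, the RNA of the inactive X chromosome, was present in KO replicate 1 at 1387 CPM and in WT replicate 1 at 969 CPM, and was at no more than 0.246 CPM in the other 4 libraries. One library of this kind stood in each group, so each group held RNA of at least 2 animals. In brain tissue, a change in the share of a cell type and a change in RNA per cell cannot be told apart.

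The minor spliceosome removes a rare class of introns, the U12-type introns, which are found in ion channel, signalling and housekeeping genes. In the U11/U12 particle, U11 RNA pairs with the 5′ splice site and U12 RNA with the branch point, and the particle's own proteins hold the ends of the intron together. *Rnpc3* (the 65K protein) binds U12 RNA through one of its RNA recognition motifs and *Pdcd7* (59K) through its other end, which bridges the U11 and U12 sides of the particle. *Snrnp48* (48K) contacts the 5′ splice site, *Snrnp35* (35K) resembles the U1-70K protein of the major spliceosome, and *Snrnp25* (25K) is a U11 protein with a ubiquitin-like fold. *Zmat5* (20K) is a zinc finger protein and *Zcrb1* (31K) carries a zinc knuckle and an RNA recognition motif. *Scnm1* is best known as a modifier of the splicing of the sodium channel gene *Scn8a*. Mutations of human *RNPC3* cause growth hormone deficiency.

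*Rnpc3* and *Snrnp48* are also known for a shared form of feedback, in which U11 particles bind a pair of U12-type 5′ splice sites inside their own transcripts and change how these are processed. The transcripts of the GENCODE M21 annotation (GRCm38) were searched on the sense strand for 2 copies of TATCCTT, the 5′ splice site letters of this class, with the second copy starting at most 25 bases after the first. The 30 bases around each pair are printed because they are the stretch that *Rnpc3* and *Snrnp48* share and the other 6 members lack in this search. Capitals mark the 2 copies.
*Rnpc3*, chr3:113607231-113607260 (GRCm38, minus strand): aagtgTATCCTTtcttgTATCCTTttcggg
*Snrnp48*, chr13:38214667-38214696 (GRCm38, plus strand): agTATCCTTtttgcaaatgaTATCCTTtta

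The *Rnpc3* pair starts 12 bases apart and lies in the 3′ UTR of 3 of its 8 annotated transcripts (Rnpc3-201, Rnpc3-202 and Rnpc3-208). The *Snrnp48* pair starts 18 bases apart and lies in 1 transcript, Snrnp48-204, which is annotated as a retained intron and has no coding sequence. Such pairs were rare, found in 50 of 141767 transcripts (0.0353%) and 31 of 55450 genes (0.0559%), while a single copy stood in 11276 transcripts (7.95%) and 6323 genes (11.4%). A match of letters is not a measured site, and the spacing was chosen with the expression values known. The counts here sum over all exons of a gene, so transcripts with and without the pair could not be compared.

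*Rnpc3* (ENSMUSG00000027981.15, chr3:113398716-113423798 in GRCm39, minus strand) was at 42.2, 39.6 and 46.0 CPM in the KO libraries and at 27.4, 33.9 and 34.4 CPM in those of WT. Every KO library was above every WT library, and the lowest value was that of WT replicate 1. The KO mean was 42.6 ± 3.21 CPM and the WT mean 31.9 ± 3.87 CPM (SD, n = 3 each). In the limma-voom fit, the log2 fold change was 0.42 with a standard error (SE) of 0.10, which is 1.34-fold higher in KO. These are the values that chose the group. Between the 4 libraries with low *Xist* alone, the log2 fold change was 0.32 for *Rnpc3*, and the median over its partners was -0.03.

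Over the 19084 genes tested, every KO library lay above every WT library for 6.72% and below for 6.29%. No gene passed an adjusted p of 0.05 (0%) in limma-voom. At an unadjusted p under 0.05, 1492 genes (7.82%) passed, 4.38% higher in KO and 3.44% lower. That count was 782 without WT replicate 2 and 2239 without WT replicate 3, so the share set beside each list is not stable. edgeR's quasi-likelihood test also called 0 genes, and DESeq2 called 1, *Sst*.

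No partner passed the test. Their log2 fold changes lay between -0.10 and 0.05 with a median of -0.06, beside a median of 0.01 over all genes tested. The partners' median was -0.13 when WT replicate 3 was left out, and -0.034 when KO replicate 1 or KO replicate 3 was. Of the 7 partners, 1 was fitted higher and 6 lower in KO, and 0 passed an unadjusted p of 0.05, beside the 7.82% of all genes. This tally is not stable, since *Snrnp25*, *Zmat5* and *Scnm1* each crossed 0 when a single library was left out. Their unadjusted p-values were 0.490 to 0.679 and their adjusted p-values 0.855 to 0.921 (limma-voom, Benjamini-Hochberg). The highest upper bound of their 95% confidence intervals was a log2 fold change of 0.24, while the interval of *Rnpc3* ran from 0.20 to 0.64, so the intervals of 4 partners (*Zmat5*, *Snrnp35*, *Scnm1* and *Snrnp25*) overlapped it at their upper ends. These intervals are a description, since *Rnpc3* was chosen for its difference.

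**Figure D1:**
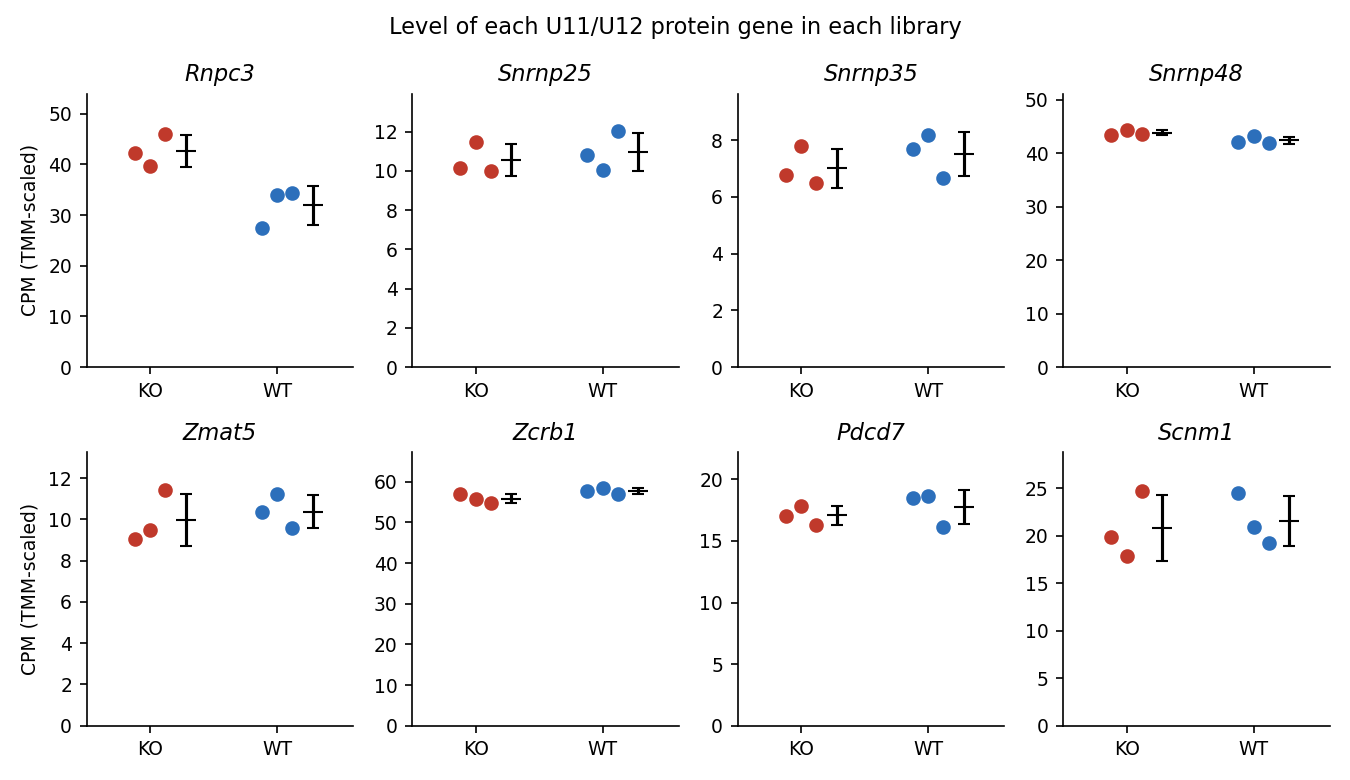
Level of each of the 8 genes in CPM after TMM scaling, on axes that start at 0, in the 3 KO (red) and 3 WT (blue) libraries, each a point, with the mean ± SD in black. *Rnpc3* ran from 39.6 to 46.0 CPM in KO and from 27.4 to 34.4 CPM in WT, while in 5 of the 7 partners the groups overlapped.

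Among the proteins of the U11 side, *Pdcd7*, the direct contact of the *Rnpc3* protein, is at chr9:65253386-65266925 on the plus strand (ENSMUSG00000041837.5). It was at 17.0, 17.8 and 16.3 CPM in the KO libraries and at 18.5, 18.7 and 16.2 CPM in those of WT. The groups overlapped, with WT replicate 3 the lowest of all. The fitted log2 fold change was -0.06 (SE 0.11, 95% interval -0.29 to 0.17, adjusted p = 0.897).

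*Snrnp48*, the 5′ splice site protein and the other member with the paired sites printed above, is at chr13:38388914-38411641 on the plus strand (ENSMUSG00000021431.16). It was at 43.5, 44.4 and 43.6 CPM in the KO libraries and at 42.2, 43.2 and 41.9 CPM in those of WT. Every KO library was above every WT library, as for 6.72% of all genes, but the gap between the groups was narrow. Its log2 fold change was 0.05 (SE 0.07, 95% interval -0.11 to 0.20, adjusted p = 0.871).

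*Snrnp35* is at chr5:124621197-124629187 on the plus strand (ENSMUSG00000029402.9). It was at 6.76, 7.79 and 6.48 CPM in the KO libraries and at 7.68, 8.19 and 6.67 CPM in those of WT, and the groups overlapped. This was the member with the fewest fragments, 83 to 100 a library, and so the widest interval. In limma-voom, the log2 fold change was -0.10 (SE 0.16, 95% interval -0.44 to 0.24, adjusted p = 0.868).

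*Snrnp25* is at chr11:32155415-32158984 on the plus strand (ENSMUSG00000040767.11). It was at 10.1, 11.5 and 9.997 CPM in the KO libraries and at 10.8, 10.1 and 12.01 CPM in those of WT. The groups overlapped, with the highest and the second lowest levels both in WT. KO differed from WT by a log2 fold change of -0.06 (SE 0.13, 95% interval -0.35 to 0.22, adjusted p = 0.909).

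Of the zinc finger and zinc knuckle proteins, *Zmat5* is at chr11:4654678-4687669 on the plus strand (ENSMUSG00000009076.11). It was at 9.06, 9.46 and 11.4 CPM in the KO libraries and at 10.3, 11.2 and 9.58 CPM in those of WT. Its highest and lowest libraries were both KO, so the WT values lay inside the KO range. The log2 fold change was -0.06 (SE 0.14, 95% interval -0.37 to 0.24, adjusted p = 0.914).

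*Zcrb1* is at chr15:93283978-93296215 on the minus strand (ENSMUSG00000022635.10). It was at 56.9, 55.8 and 54.7 CPM in the KO libraries and at 57.7, 58.4 and 57.1 CPM in those of WT. Every KO library was below every WT library, the opposite order to *Rnpc3*, as for 6.29% of all genes. The fitted log2 fold change was -0.05 (SE 0.07, 95% interval -0.20 to 0.10, adjusted p = 0.855).

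*Scnm1* is at chr3:95036847-95041322 on the minus strand (ENSMUSG00000092607.10). It was at 19.9, 17.8 and 24.7 CPM in the KO libraries and at 24.5, 20.95 and 19.2 CPM in those of WT. The groups overlapped over most of their range, with the highest and lowest libraries both KO. Its log2 fold change was -0.06 (SE 0.13, 95% interval -0.34 to 0.23, adjusted p = 0.921).

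**Figure D2:**
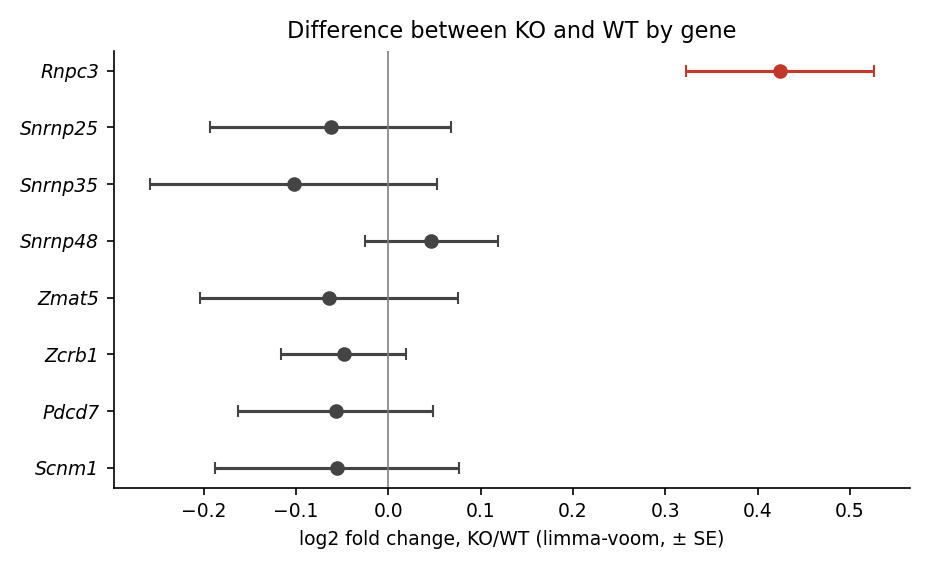
Log2 fold change of KO over WT for each of the 8 genes from the limma-voom fit, with bars of 1 standard error on each side and a line at 0. *Rnpc3* is at 0.42, and the 7 partners sit between -0.10 and 0.05.

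The partners differed in their spread over the 6 libraries. The coefficient of variation was 2.16% for *Snrnp48*, where counting error at its mean of fragments comes to 4.24%, and 2.35% beside 3.70% for *Zcrb1*. *Scnm1* varied most among the partners, at 13.3% beside 6.06%, with its highest and lowest libraries both KO. The spread holds differences between libraries as well as counting error. Counting errors treat fragments as independent molecules, which PCR copies are not.

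A ratio taken within a library does not depend on how that library was scaled. Log2 of *Rnpc3* over the mean of its 7 partners came to 1.26, 1.12 and 1.32 in the KO libraries and to 0.52, 0.83 and 0.95 in those of WT. All KO values were above all WT values. The KO mean was 1.23 ± 0.104 and the WT mean 0.76 ± 0.222 (SD, n = 3 each), a log2 difference of 0.47, or 1.38-fold.

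Taken partner by partner, the log2 difference of the ratio between KO and WT ran from 0.38 against *Snrnp48* to 0.52 against *Snrnp35*. The groups did not overlap for 6 of the 7 partners. The exception was *Snrnp35*, where KO replicate 2 at 2.34 lay just under WT replicate 3 at 2.36. All of these ratios share the *Rnpc3* values that chose the group, so they describe the same difference and add no separate evidence of it.

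**Figure D3:**
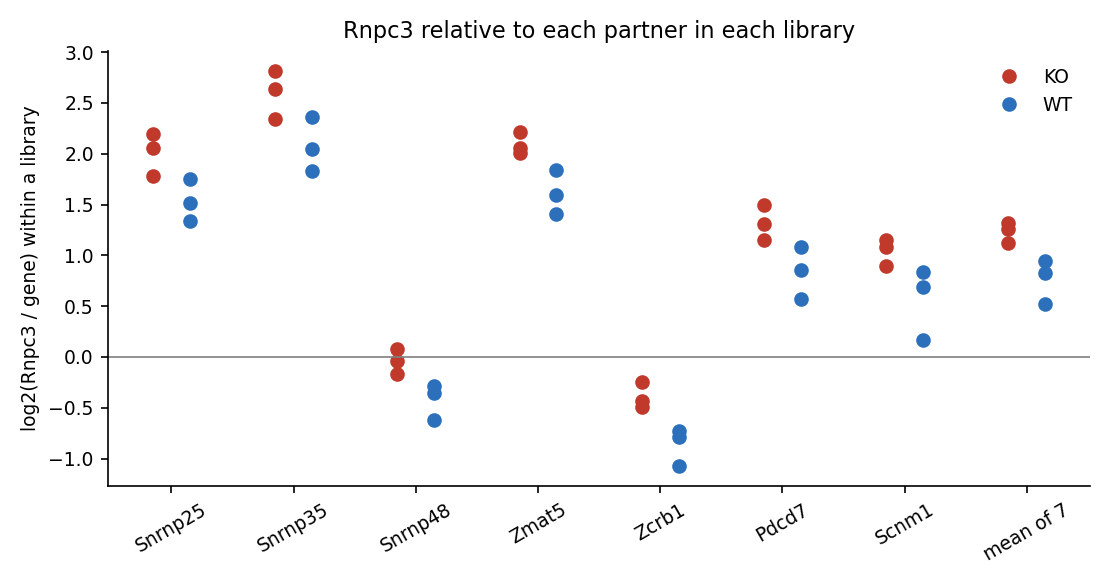
Log2 of the ratio of *Rnpc3* to each partner, and to the mean of the 7 partners, within each library, with KO in red and WT in blue. The ratio to the mean was 1.12 to 1.32 in KO and 0.52 to 0.95 in WT, and the groups overlapped for *Snrnp35* alone.

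Levels were compared between genes per exon length, as FPKM (CPM per kilobase of exon), over all 6 libraries. *Zcrb1* was highest at 18.5 ± 0.433 FPKM (SD, n = 6), followed by *Snrnp25* at 10.3 ± 0.806, *Scnm1* at 9.78 ± 1.30, *Zmat5* at 8.15 ± 0.779 and *Pdcd7* at 6.97 ± 0.431. *Rnpc3* at 5.62 ± 1.01, *Snrnp35* at 5.39 ± 0.527 and *Snrnp48* at 4.26 ± 0.0921 were lowest. The neighbours *Snrnp25* and *Scnm1*, and *Rnpc3* and *Snrnp35*, lay within each other's SD. *Rnpc3* was at 6.43 ± 0.484 FPKM in KO and 4.81 ± 0.585 FPKM in WT (SD, n = 3 each), so its place beside *Snrnp35* differed by group. *Snrnp35* was at 5.204 ± 0.511 FPKM in KO, below *Rnpc3*, and at 5.58 ± 0.572 FPKM in WT, above it. Exon lengths take in annotated retained introns, which lowers FPKM. GENCODE M21 lists 5 such models each for *Zcrb1* and *Scnm1*, 2 for *Snrnp48*, 1 each for *Rnpc3* and *Snrnp25* and none for the other members, so the scale is rough. The length of *Rnpc3* also takes in 1128 bases (17.0%) shared with *Amy1*, a gene on the same strand, where fragments were counted for neither. This lowers the FPKM of *Rnpc3* and makes its place between *Pdcd7* and *Snrnp35* uncertain.

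Over the 6 libraries, the log2 level of *Rnpc3* had a Pearson r of 0.70 with *Snrnp48*, -0.05 with *Zmat5*, -0.18 with *Scnm1*, -0.33 with *Snrnp25*, -0.56 with *Snrnp35*, -0.59 with *Pdcd7* and -0.77 with *Zcrb1*. These describe 6 libraries that share a design of 2 groups. The genes most like *Rnpc3* by this measure were *Tmem38b* (r = 0.995), *Atp10d* (0.990), *Chd6* (0.989), *Nsd1* (0.986) and *Mpg* (0.982), none of them a spliceosome gene. Of the 11945 genes at a mean of at least 5 CPM, *Rnpc3* among them, 210 others (1.76%) had an r above 0.9. All of these values rest on the *Rnpc3* counts that chose the group, and nothing is read from them about the partners.

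The neighbourhood of *Rnpc3* bears on its count. *Amy1*, an amylase gene on the same strand, overlaps the end of *Rnpc3* by 1633 bases, and 1128 exonic bases (17.0% of the 6627 bases counted for *Rnpc3*) belong to both genes. Fragments in that stretch were counted for neither gene. *Amy1* was at 31.4, 22.7 and 25.1 CPM in the KO libraries and at 22.2, 20.1 and 25.04 CPM in those of WT, and the groups overlapped. In limma-voom, the log2 fold change was 0.24 (SE 0.13, adjusted p = 0.653 in limma-voom). With both genes summed, an alternative chosen after seeing the data, the log2 fold change was 0.35. Whether transcripts that run through both genes contribute to either count was not tested.

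On the opposite strand, an unnamed gene shares 287 exonic bases (4.33%) with *Rnpc3*, and *Cabp7* shares 338 (27.1%) with *Zmat5*. Counting was strand-specific, so fragments of these genes were kept apart as far as the library strand allows. The other 6 members overlap no annotated gene.

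No other protein of the minor spliceosome passed the adjusted test. Of 9 other minor spliceosome proteins, 1 was fitted higher and 8 lower, beside 9185 lower of the 19084 genes tested. The median log2 fold change was -0.12 (-0.080 without WT replicate 3), and 1 passed an unadjusted p of 0.05, lower in KO, beside 3.44% of all genes. The one fitted higher was *Ccdc84*, also known as *Cenatac*, whose groups overlapped. The one at an unadjusted p under 0.05 was *Zrsr2*, which recognises the 3′ splice site of U12-type introns. It was at 32.8, 35.5 and 35.1 CPM in the KO libraries and at 41.9, 43.2 and 39.1 CPM in those of WT. Every KO library was below every WT library, as for 6.29% of all genes. The log2 fold change was -0.27 (SE 0.08, unadjusted p = 0.00627, adjusted p = 0.635 in limma-voom). *Zrsr2* has a close copy, *Zrsr1*, elsewhere in the mouse genome, and fragments that match both were not counted, which makes its level uncertain.

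The U12 particle shares the SF3b complex, which holds the branch point, with the U2 particle. Of its 7 subunits, 1 was fitted higher and 6 lower in KO, with a median log2 fold change of -0.09, which was -0.0086 without WT replicate 1. The one fitted higher was *Sf3b1*, the largest subunit, at 427, 377 and 388 CPM in the KO libraries and at 352, 348 and 368 CPM in those of WT. Every KO library was above every WT library, with a log2 fold change of 0.16 (SE 0.07, unadjusted p = 0.0311, adjusted p = 0.635 in limma-voom). It was the 1 subunit of 7 at an unadjusted p under 0.05, beside 4.38% of all genes higher in KO. Of the 7, 1 had every KO library above every WT library and 1 every KO library below, beside 6.72% and 6.29% of all genes. The log2 fold change of *Sf3b1* was 0.105 without KO replicate 1 and 0.096 between the libraries with low *Xist*.

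The Sm proteins form a ring on most spliceosomal RNAs, U11 and U12 among them. Of 8 Sm genes, 1 was fitted higher and 7 lower in KO, with a median log2 fold change of -0.14 (-0.065 without KO replicate 3), and 2 passed an unadjusted p of 0.05, both lower in KO, beside 3.44% of all genes. *Snrpd3* was at 37.2, 34.0 and 36.6 CPM in the KO libraries and at 46.8, 47.7 and 37.4 CPM in those of WT, a log2 fold change of -0.28 (SE 0.10, unadjusted p = 0.0164, adjusted p = 0.635). *Snrpn*, an imprinted gene of this family that is highly expressed in neurons, was at 361, 370 and 387 CPM in the KO libraries and at 422, 451 and 397 CPM in those of WT. KO differed from WT by a log2 fold change of -0.18 (SE 0.06, unadjusted p = 0.0157, adjusted p = 0.635). In both genes every KO library lay below every WT library, as for 6.29% of all genes.

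Factors that assemble and import the particles gave a median log2 fold change of -0.09 (-0.056 without KO replicate 1), with 4 of 14 fitted higher and 10 lower. Of these, 1 passed an unadjusted p of 0.05, lower in KO, beside 3.44% of all genes lower and 7.82% in either direction. This was *Clns1a*, the pICln chaperone of Sm proteins, at 48.5, 49.7 and 53.0 CPM in the KO libraries and at 58.5, 57.2 and 54.3 CPM in those of WT. The fitted log2 fold change was -0.17 (SE 0.07, unadjusted p = 0.0387, adjusted p = 0.635 in limma-voom), and the groups did not overlap. Of the 14, 2 had every KO library below every WT library, *Clns1a* among them, and 1 every KO library above. Over all genes these shares were 6.29% and 6.72%.

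Proteins of U5 and the tri-snRNP, used by both spliceosomes, gave a median log2 fold change of -0.02 (-0.0067 without KO replicate 3 and -0.012 without KO replicate 1), with 3 of 12 fitted higher and 9 lower. *Prpf4*, a tri-snRNP protein, was the 1 gene of these 12 at an unadjusted p under 0.05, a share near the 7.82% of all genes. It was at 23.0, 19.6 and 21.7 CPM in the KO libraries and at 18.4, 16.9 and 19.3 CPM in those of WT. Every KO library was above every WT library, as for 2 of these 12 genes and 6.72% of all genes. The log2 fold change of *Prpf4* was 0.24 (SE 0.11, unadjusted p = 0.0420, adjusted p = 0.635 in limma-voom).

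Among 10 proteins of the U1 and U2 particles, which have no part in the U11/U12 particle, the median log2 fold change was -0.07 (-0.03 without WT replicate 1 and -0.11 without WT replicate 3). Of the 10, 2 were fitted higher and 8 lower, and 0 passed an unadjusted p of 0.05, beside 7.82% of all genes. *Snrnp70*, the U1-70K protein to which *Snrnp35* is related, was the nearest. It was at 494, 480 and 481 CPM in the KO libraries and at 425, 433 and 473 CPM in those of WT, a log2 fold change of 0.13 (SE 0.06, unadjusted p = 0.0555, adjusted p = 0.637). The KO values of *Snrnp70* lay above its WT values, while *Snrnp35* was fitted on the other side of 0. Of the 10, 1 had every KO library above every WT library and 2 every KO library below, beside 6.72% and 6.29% of all genes.

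**Figure D4:**
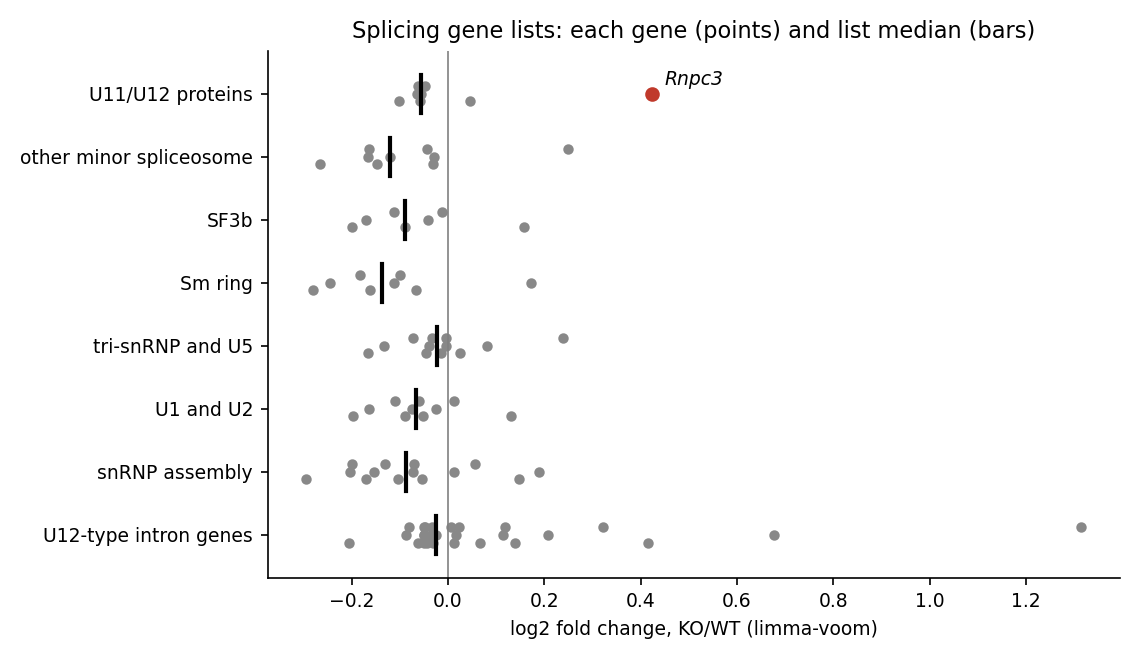
Log2 fold change of KO over WT for each tested gene (points) of the U11/U12 proteins and of 7 other hand-written splicing lists, with the median of each list as a black bar. *Rnpc3* (red) is at 0.42, to the right of the other members, and the list medians lie between -0.14 and -0.02.

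Of the RNAs of the minor spliceosome, U11 and U12 were matched by symbol and were almost not counted. U11 RNA (*Rnu11*) had 1 fragment in KO replicate 3 and none in the other 5 libraries, and U12 RNA (*Rnu12*) had 2 fragments in WT replicate 1 and 1 in WT replicate 3. These RNAs carry no poly(A) tail and the libraries were made from polyadenylated RNA, so these counts say nothing of their abundance.

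The genes that the minor spliceosome serves were taken from a hand-written list of 28 mouse genes commonly cited as holding a U12-type intron. The introns themselves were not examined. Of the 27 tested, 13 were fitted higher and 14 lower in KO, with a median log2 fold change of -0.03 beside 0.01 over all genes. That median had no stable sign. Leaving out KO replicate 1 gave 0.04 and leaving out KO replicate 3 gave -0.04, while the fits lacking WT replicate 1 or WT replicate 2 gave 0.01 and -0.0024. At an unadjusted p under 0.05, 4 were higher, beside 4.38% of all genes, and none was lower, beside 3.44%. Every KO library was above every WT library for 4 of the 27, beside 6.72% of all genes, and below for 0, beside 6.29%.

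*Hps1*, a gene of lysosome-related organelle formation, was at 34.3, 28.5 and 31.2 CPM in the KO libraries and at 24.1, 24.1 and 27.1 CPM in those of WT. Every KO library was above every WT library, with a log2 fold change of 0.32 (SE 0.10, unadjusted p = 0.00656, adjusted p = 0.635). *Cacna1d*, an L-type calcium channel, was at 137, 124 and 127 CPM in the KO libraries and at 108, 115 and 112 CPM in those of WT. In limma-voom, the log2 fold change was 0.21 (SE 0.07, unadjusted p = 0.00894, adjusted p = 0.635), also with no overlap.

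*Scn8a*, whose splicing *Scnm1* is known to modify, was looked up for that reason. It was at 373, 456 and 461 CPM in the KO libraries and at 409, 474 and 448 CPM in those of WT. The groups overlapped, with KO replicate 1 the lowest. KO differed from WT by a log2 fold change of -0.05 (SE 0.09, 95% interval -0.24 to 0.14, adjusted p = 0.886). Counts over whole genes do not show whether an intron was removed.

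Markers of the cell types of the tissue were measured beside *Rnpc3*. Summed over 8 neuron markers, the libraries held 7692 to 8182 CPM in KO and 8165 to 9213 CPM in WT, and over 9 striatal markers 341 to 448 CPM in KO and 255 to 426 CPM in WT. Over 8 oligodendrocyte markers they held 2260 to 2600 CPM in KO and 1779 to 2880 CPM in WT, and over 7 astrocyte markers 4168 to 4576 CPM in KO and 3907 to 4575 CPM in WT. Each of these ranges overlapped between the genotypes, and no marker in these lists was at 0 in all libraries. Single markers were fitted higher in KO for 9 of 9 striatal, 7 of 7 astrocyte and 7 of 8 oligodendrocyte markers. Lower in KO were 7 of 8 neuron, 6 of 6 endothelial and 6 of 8 cortical excitatory markers. Interneuron markers split into 3 higher and 3 lower, microglia markers into 2 and 4, and choroid plexus markers into 3 and 2. Over all genes tested, 9899 were fitted higher and 9185 lower, and the difference from these shares was not tested. Of 6 interneuron markers, 2 (*Sst* and *Pvalb*) passed an unadjusted p of 0.05, lower in KO, beside 3.44% of all genes. In both, every KO library was below every WT library, as for 6.29% of all genes. *Gad1*, *Gad2* and *Slc32a1* were fitted higher, at log2 fold changes of 0.33, 0.10 and 0.05, and *Vip* lower at -0.15, all with overlapping groups. Median log2 fold changes were -0.13 for neuron, -0.13 for cortical excitatory, -0.05 for interneuron, 0.14 for oligodendrocyte, 0.08 for astrocyte, -0.05 for microglia, -0.09 for endothelial, 0.28 for striatal and 0.07 for choroid plexus markers. Choroid plexus markers lay far apart, with *Ttr* at -3.22 (26.8 CPM in WT replicate 2) and *Aqp1* at 1.81 (9.67 CPM in KO replicate 1). The part of these cell types in the difference of *Rnpc3* was not tested.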

How the data were processed

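Polyadenylated RNA of prefrontal cortex was sequenced in strand-specific libraries. The deposited values are raw counts of fragments per gene, 1 table per sample, which the authors made with STAR 2.7.9a and featureCounts 1.6.0 (versions per the submitters' processing notes). Per the file headers, counting was reverse-stranded (option 2) over exons of GENCODE M31 (GRCm39), while the study's methods name an earlier assembly and annotation. No option for fragments of several genes or several places was set, so these were not counted.

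Groups and replicate numbers were read from sample titles. Genes with at least 6 fragments in at least 1 library were kept (19084), as in the study's methods, scaled by TMM in edgeR 4.0.16 and compared with voom and limma 3.58.1 under R 4.3.3, two-sided, with Benjamini-Hochberg adjustment across every tested gene, a threshold of 0.05 and no covariates. DESeq2 1.42.0 and edgeR's quasi-likelihood test were alternatives, and others were the scaling, the filter, a replicate block and each library left out. Ratios used a pseudocount of 0.5 fragments and patterns one of 0.5 CPM. In counts simulated for this comparison on 18524 genes, the fit recovered 99 of 100 genes changed 2-fold and 100 of 100 changed 4-fold, with 15 false calls. The changed genes were at a mean of at least 5 CPM, and no change smaller than 2-fold was simulated. The simulation therefore does not show whether differences as small as those of *Rnpc3* or its partners would be found.

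The members and the gene lists were chosen with earlier results of these data known. In each splicing list the text names up to 2 genes a direction with the lowest unadjusted p under 0.05, or the 1 of lowest p where none was under it, and the 5 genes most like *Rnpc3* among those at a mean of at least 5 CPM. Symbols came from a GENCODE annotation of the previous assembly by identifier (52073 of 56923 matched). *Cenatac* was counted under its older symbol *Ccdc84*, and 2 of the 4 minor spliceosome RNAs listed were not matched by symbol. Per-length values divide CPM by the exon length in the tables. Of the genes with U12-type introns at an unadjusted p under 0.05, those outside the rule for named genes are not reported here by name.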

Additional observations from a re-analysis of the deposited data

How the results depend on the processing

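*Rnpc3* was fitted higher in KO under all 17 alternatives, with a log2 fold change from 0.32 (without WT replicate 1) to 0.48 (without WT replicate 3). Its log2 ratio to the partners differed by 0.33 to 0.56 under the 9 alternatives run for it. All of these fits and ratios reuse the *Rnpc3* counts that chose the group. They describe the same difference and add no separate evidence of it. Under each of the 16 alternatives run for them, 0 of the 7 partners passed an unadjusted p of 0.05. *Snrnp35*, *Zcrb1* and *Pdcd7* stayed below 0 and *Snrnp48* above it. *Snrnp35* ran from -0.19 to -0.040 and *Pdcd7* from -0.13 to -0.022 with 1 library left out. In the 2-against-2 comparison of the libraries with low *Xist*, *Zmat5* was at 0.0099 and *Scnm1* at 0.071. With 1 library left out, *Snrnp25* ran from -0.13 to 0.0017, *Zmat5* from -0.16 to 0.010, *Scnm1* from -0.18 to 0.040 and the partners' median from -0.13 (without WT replicate 3) to -0.034 (without KO replicate 3), and 0 to 2 members changed place in the order of levels. The median of the genes with U12-type introns ran from -0.04 to 0.05 over the alternatives. That of U5 and tri-snRNP genes was 0.0015 when scaled by library totals. With 1 library left out, the median of SF3b genes ran from -0.13 to -0.0086, of Sm genes from -0.16 to -0.065, of U1 and U2 genes from -0.11 to -0.03, of U5 and tri-snRNP genes from -0.023 to -0.0067, of assembly factors from -0.12 to -0.056 and of other minor spliceosome genes from -0.15 to -0.080.

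Over all genes, the adjusted threshold was passed by 1 gene in DESeq2 (*Sst*), by 3 in the 2-against-2 comparison (*Col6a4*, *Eps8l1* and *Gfap*) and by 24 with *Xist* as a covariate, an alternative chosen after seeing the data. With 1 library left out the count was 0 to 1 (*Ripor2*, without WT replicate 2). None of these genes was a member. At an unadjusted p under 0.05 there were 902 genes in DESeq2, 696 in the 2-against-2 comparison and 782 to 2239 with 1 library left out. The causes were not tested. Of the unadjusted calls, 56.0% were higher in KO under TMM, 52.2% under DESeq2's size factors and 71.9% when scaled by library totals, which moved the median of all genes from 0.01 to 0.03. The 9 genes given by the naming rule from the other splicing lists kept their direction under the 16 alternatives, which were not run for *Ccdc84* and *Scn8a*.

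Deviations from the group means correlated at 0.32 between the samples numbered 1, which are also those with high *Xist*, and at 0.08 and -0.03 between the others, so the numbers were not taken to pair the samples. With a replicate block, *Rnpc3* was at 0.42, the partners' median at -0.06, 0 genes passed the adjusted threshold and 1693 the unadjusted one. The planned search for U12-type introns in a genome, and its 6-base alternative, were not run because no genome was used here. *Snrnp25*, *Snrnp35* and *Zmat5* had 83 to 153 fragments a library. The 95% intervals of the 7 partners reached as far as -0.44 and 0.24, and differences within them could not be seen with 3 libraries a group.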
